A study of Sus scrofa with 8 samples.

Results

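Proteasome genes were compared between the livers of Korean native pigs (KNP) and Yorkshire pigs (YS). The members were chosen by symbol: every probe set with a single gene symbol beginning PSMA, PSMB, PSMC, PSMD, PSME, PSMF or PSMG followed by a digit, with PSMB8 and PSMB9 left out. This gave 45 probe sets for 39 genes, of 6765 genes with a single symbol on the array, and all 45 probe sets passed the filter on low values. The study measured liver RNA of 8 pigs, 4 KNP animals of 7 months and 4 YS animals of 6 months, with 1 Affymetrix porcine array per animal. The labels give no treatment, say that the pigs shared their husbandry, and place the sampled tissue at the tip of the largest lobe. Age followed breed, so each difference below is one of breed and age together. It is also one of any hybridization batch, which the labels do not name.

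The proteasome is the protease of the cytosol and nucleus that degrades proteins tagged with ubiquitin. Its core particle stacks rings of alpha subunits, which form the gate, around rings of beta subunits, of which PSMB5, PSMB6 and PSMB7 cut the substrate. A regulatory particle caps the core: its base holds the ATPases that unfold the substrate, and its lid holds the enzyme that removes ubiquitin. In cells exposed to interferon, PSMB10 and its partners replace the standard cutting subunits, and the PSME1 and PSME2 proteins form an alternative cap. Liver cells rely on the proteasome to clear misfolded and short-lived regulatory proteins.

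The comparison asks whether transcripts of this machine are present at other levels in one breed than in the other, and whether core, base and lid behave alike. Of the 39 genes, PSMB5 rose in KNP and none fell, each gene read with its brightest probe set. Over all 45 probe sets a second one also passed, the dimmer probe set of the inhibitor PSMF1, again higher in KNP. Limma called 1.03% of the 14399 probe sets tested, 0.424% as higher in KNP and 0.611% as lower, so 1 call among 39 genes is close to that share. At an unadjusted p under 0.05, 5 of the 39 genes stood out, 2 higher and 3 lower, against 15.1% of all probe sets tested, 7.07% higher and 8.06% lower. The median difference, KNP minus YS on the scale of log2(intensity + 16), was −0.05 over the 39 genes and −0.01 over all probe sets tested. Without KNP replicate 4 it was 0.01 over the 39 genes, and 19 of them lay below 0 in place of 25.

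Some facts of the arrays bear on every value. The median intensity was 153 to 170 on KNP arrays and 154 to 180 on YS arrays. The highest intensity was 50730 to 60066 on KNP arrays and 83646 to 95919 on YS arrays. The bacterial control transcripts added at hybridization had a geometric mean of 3286 to 4833 on KNP and 6499 to 8785 on YS arrays. The ratio of the 3′ to the 5′ actin control, a measure of RNA length, was 2.68 to 6.45 in KNP and 8.39 to 11.8 in YS. A second actin pair overlapped between the breeds, with a ratio of 0.118 to 0.489 in KNP and 0.0752 to 0.496 in YS. The same ratio for GAPDH was 2.30 to 3.77 and 3.07 to 4.05, with overlap. Ranges of the highest intensity, of the control transcripts and of the first actin ratio were separate in KNP and YS. The part of these measures in the differences below was not tested. The proteasome genes lay between the mean log2 intensities of 8 and 13. Probe sets of 12 to 13 had a median difference of −0.07 and those of 11 to 12 of 0.00, whereas those of 14 to 17, where no proteasome gene lay, had −0.46. Quantile normalization, which makes the distribution of values the same on each array, moved these genes little, as the plot of differences under other scalings shows.

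**Figure D1:**
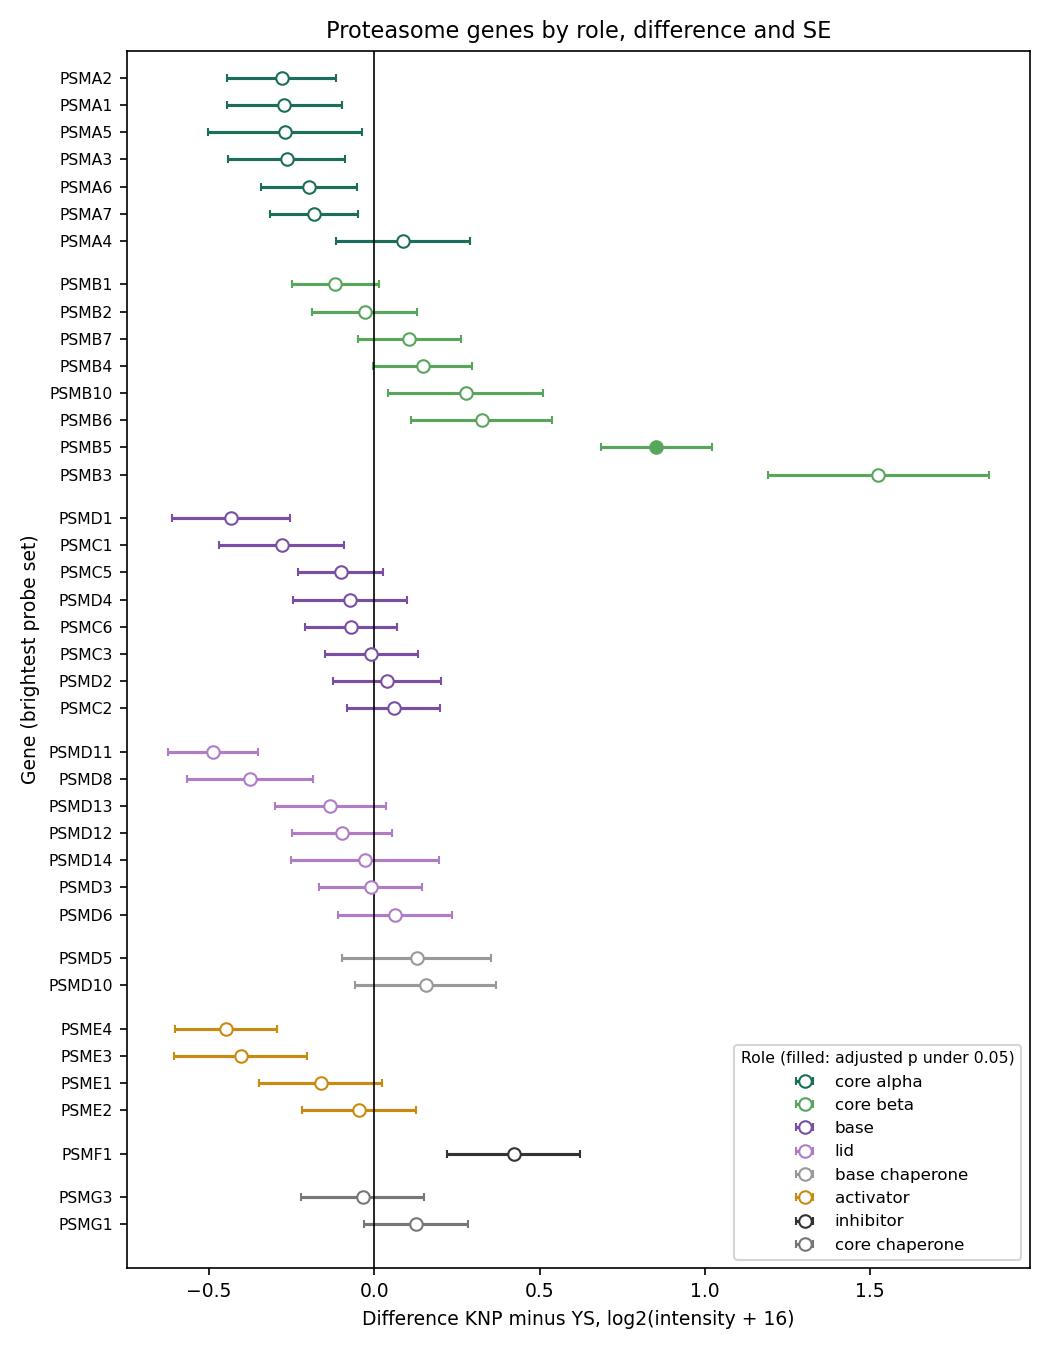
Difference between the breeds for each of the 39 proteasome genes, KNP minus YS on the log2(intensity + 16) scale (x axis), with 1 SE to each side, by gene (y axis) and role (colour); a filled point has an adjusted p under 0.05. PSMB5 is the filled point at 0.85, PSMB3 lies farthest to the right at 1.52, and 6 of the 7 alpha genes lie left of 0.

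The cutting subunits of the beta ring come first, since the called gene is one of them. PSMB5, the subunit with chymotrypsin-like activity and the main target of the drug bortezomib, had intensities of 2096, 2743, 2130 and 2125 in KNP replicates 1 to 4 and of 1087, 1556, 1297 and 1087 in YS replicates 1 to 4. Every KNP animal lay above every YS animal, and KNP replicate 2 was the highest. The means were 2274 ± 313 and 1257 ± 223 (SD, n = 4 per breed), a 1.81-fold difference (log2 0.85, SE 0.17, limma adjusted p = 0.0440). The difference stayed between 0.76 and 0.96 with any 1 animal left out, but the adjusted p was then between 0.0645 and 0.143, so the call did not survive leaving out any 1 of the 8 animals. It was also lost after quantile normalization (0.81, adjusted p = 0.0920) and after median centring (0.93, adjusted p = 0.0542).

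PSMB6, which cuts after acidic residues, had 3748, 3606, 2890 and 1842 in KNP and 2220, 2433, 2432 and 2219 in YS. KNP replicates 1 to 3 lay above all YS animals and KNP replicate 4 below them, and the difference was 0.32 (SE 0.21, adjusted p = 0.509). PSMB7, which cuts after basic residues, had 3695, 4468, 3779 and 2884 in KNP and 3180, 3512, 3653 and 3283 in YS. Its groups overlapped, again with KNP replicate 4 as the lowest array (0.11, SE 0.16, adjusted p = 0.790). PSMB10, the interferon-inducible counterpart of PSMB7, had 695, 641, 428 and 569 in KNP and 378, 544, 671 and 357 in YS. The animals of the breeds were mixed in order, with a difference of 0.28 (SE 0.23, adjusted p = 0.616).

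Among the structural beta subunits, PSMB3 had the largest difference of any member. Its intensities were 809, 673, 607 and 359 in KNP and 187, 331, 221 and 100 in YS. All KNP animals lay above all YS animals, and the margin was smallest between KNP replicate 4 and YS replicate 2. The means were 612 ± 188 and 210 ± 95.7 (log2 1.52, SE 0.33, adjusted p = 0.0651), so PSMB3 missed the threshold. It passed without KNP replicate 4 (1.75, adjusted p = 0.0482) and with array weights (1.63, adjusted p = 0.0474). The size depends on the pseudocount, since the values are low: it was 1.60 with 1 and 1.32 with 64 in place of 16. PSMB1, PSMB2 and PSMB4 showed −0.12, −0.03 and 0.15, with overlapping groups and adjusted p of 0.715, 0.953 and 0.687. Without PSMB3 and PSMB5, the median of the 6 other beta genes was 0.13.

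Read by the brightest probe set, PSMB3 and PSMB5 were the members whose KNP values all lay above the YS values. With the same reading, PSMD11, PSME3 and PSME4 were those whose KNP values all lay below. This made 5 of 39 genes without overlap, where 9.68% of all probe sets tested had none, 4.01% with KNP higher and 5.67% with KNP lower.

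**Figure D2:**
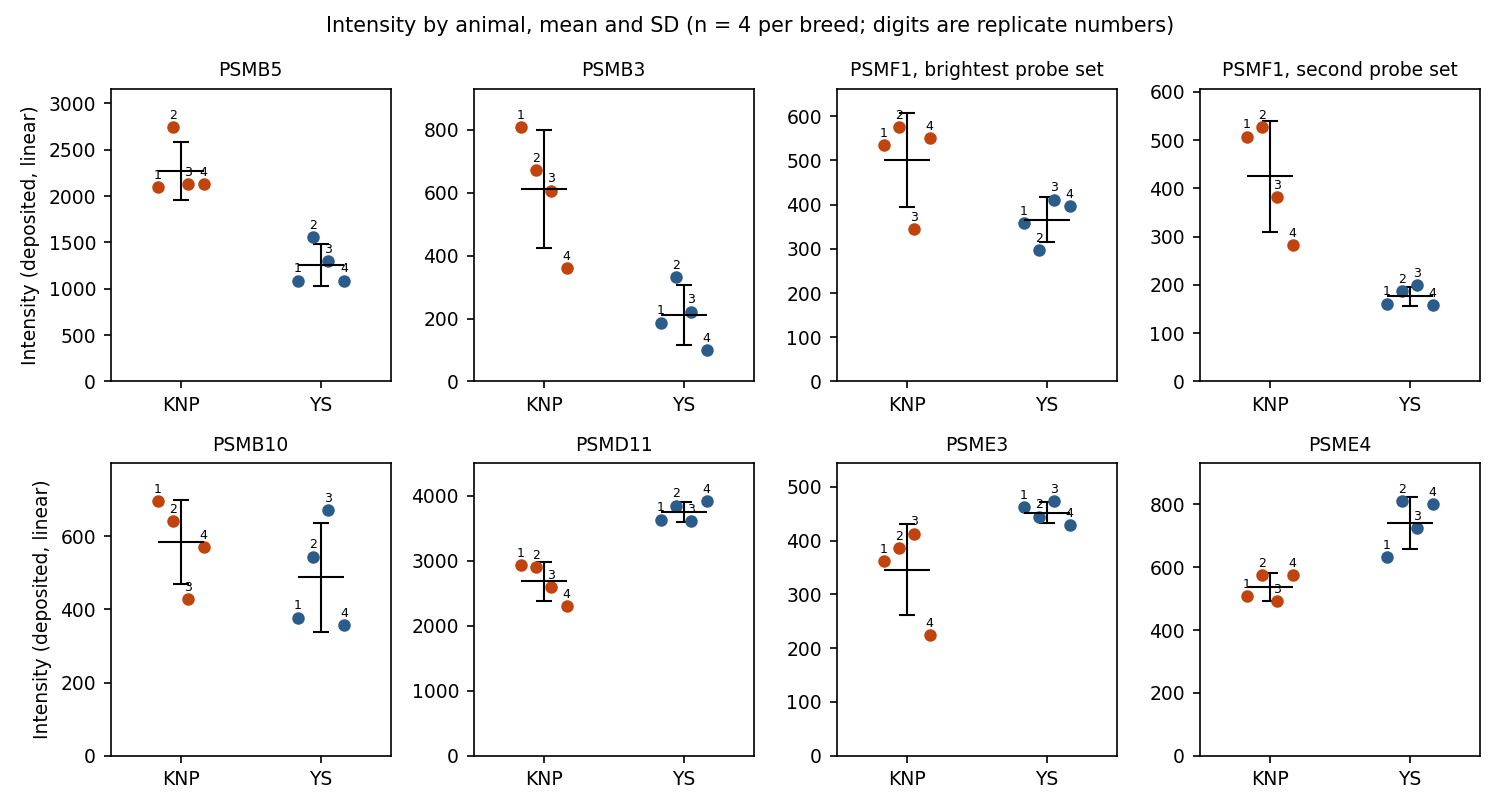
Deposited intensity on a linear scale (y axis) by animal for 8 probe sets of 7 proteasome genes; points are animals with their replicate number, and bars are the mean and SD (n = 4 per breed). PSMB5, PSMB3 and the second probe set of PSMF1 lie higher in all 4 KNP animals, PSMD11, PSME3 and PSME4 lower in all 4, and PSMB10 and the brightest probe set of PSMF1 overlap.

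The alpha ring, which gates the core and docks the caps, showed small differences of one sign in 6 of 7 genes. The largest was that of PSMA2, at 5246, 5447, 5483 and 3583 in KNP and 5733, 6551, 6161 and 5284 in YS. KNP replicate 4 lay far below the other animals, and KNP replicates 2 and 3 lay above YS replicate 4 (−0.28, SE 0.16, adjusted p = 0.460). PSMA1 followed with 2875, 3138, 3469 and 2133 in KNP and 3063, 3997, 3224 and 3614 in YS (−0.27, SE 0.17, adjusted p = 0.499). PSMA5, PSMA3, PSMA6 and PSMA7 showed −0.27, −0.26, −0.20 and −0.18, and PSMA4 was the exception at 0.09. None of these 7 genes passed, with adjusted p between 0.460 and 0.875, and none passed at an unadjusted p under 0.05.

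The rings of the core therefore differed in their medians, −0.26 for 7 alpha genes and 0.21 for 8 beta genes, which gave −0.03 for the 15 core genes together. Of the beta genes 6 of 8 had a higher mean log2 value in KNP, against 1 of 7 alpha genes. The alpha value moved with 1 animal: without KNP replicate 4 the alpha median was −0.11, the beta median 0.27 and the core median 0.08. The sign of the alpha and of the beta median held under quantile normalization (−0.20 and 0.20), median centring (−0.19 and 0.29) and cyclic loess (−0.12 and 0.24). The sign of the core median did not: it was −0.04, 0.05 and 0.03. The difference between the rings was not tested.

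In the base, 8 genes had a median of −0.07, with differences from −0.43 to 0.06 and none past the threshold. The largest was that of PSMD1, a scaffold subunit, at 2530, 1746, 2165 and 1584 in KNP and 2631, 2819, 2255 and 3030 in YS. KNP replicate 1 was the one KNP animal within the YS range (−0.43, SE 0.18, adjusted p = 0.286). The second probe set of PSMD1 showed −0.34 (adjusted p = 0.426), close to the first. PSMC1, an ATPase whose tail helps to open the gate of the core, had 3028, 2137, 2796 and 1693 in KNP and 3083, 2645, 2697 and 3047 in YS (−0.28, SE 0.19, adjusted p = 0.525). KNP replicates 2 and 4 were low and the other 2 KNP animals lay among the YS animals.

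The other ATPases were closer to 0. PSMC2 showed 0.06, 0.16 and 0.05 with its 3 probe sets, with overlapping groups in each. PSMC3, PSMC5 and PSMC6 showed −0.01, −0.10 and −0.07, each with an SE of at most 0.14. The scaffold subunit PSMD2 showed 0.04 and the ubiquitin receptor PSMD4 −0.07. For PSMC3 the means were 3116 ± 368 in KNP and 3126 ± 248 in YS, and the fold behind them was 1.01.

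In the lid, 7 genes had a median of −0.10, with differences from −0.49 to 0.06 and none past the threshold. PSMD11, a scaffold subunit whose amount limits assembly of the capped proteasome in some cells, had 2929, 2899, 2598 and 2303 in KNP and 3634, 3850, 3614 and 3915 in YS. All KNP animals lay below all YS animals, with a gap between 2929 and 3614. The means were 2682 ± 294 and 3753 ± 152 (−0.49, SE 0.13, adjusted p = 0.123). Its other probe sets showed −0.09 at 491 ± 120 against 515 ± 47.5, and 0.25 at 144 ± 71.5 against 125 ± 77.6, the last below the array medians in several animals. Averaged over its probe sets PSMD11 showed −0.11 (adjusted p = 0.836).

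PSMD8, a lid subunit that joins late in assembly, had 3435, 3509, 3323 and 2210 in KNP and 3413, 5064, 3549 and 4126 in YS. KNP replicate 4 lay apart at the bottom and YS replicate 2 at the top (−0.38, SE 0.19, adjusted p = 0.380). PSMD14, the enzyme that removes ubiquitin from the substrate, had 1669, 1346, 2156 and 996 in KNP and 1514, 1801, 1324 and 1452 in YS. The KNP animals held both the highest and the lowest value, so the mean intensity was higher in KNP and the mean log2 value lower (−0.03, SE 0.22, adjusted p = 0.968). The scaffold subunits PSMD3, PSMD6, PSMD12 and PSMD13 showed −0.01, 0.06, −0.10 and −0.13.

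Core, base and lid thus had medians of −0.03, −0.07 and −0.10, with 1, 0 and 0 genes called. Their share of genes with a lower mean in KNP was 8 of 15, 6 of 8 and 6 of 7, against 51.1% of all probe sets tested. Without KNP replicate 4 the counts were 7 of 15, 4 of 8 and 4 of 7. After median centring the counts in base and lid were 3 of 8 and 4 of 7, and their medians were 0.00 and −0.02. The median over all probe sets tested was then 0.07, in place of −0.01, so base and lid still lay below it. The sign of the base median thus depends on how the arrays are scaled.

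**Figure D3:**
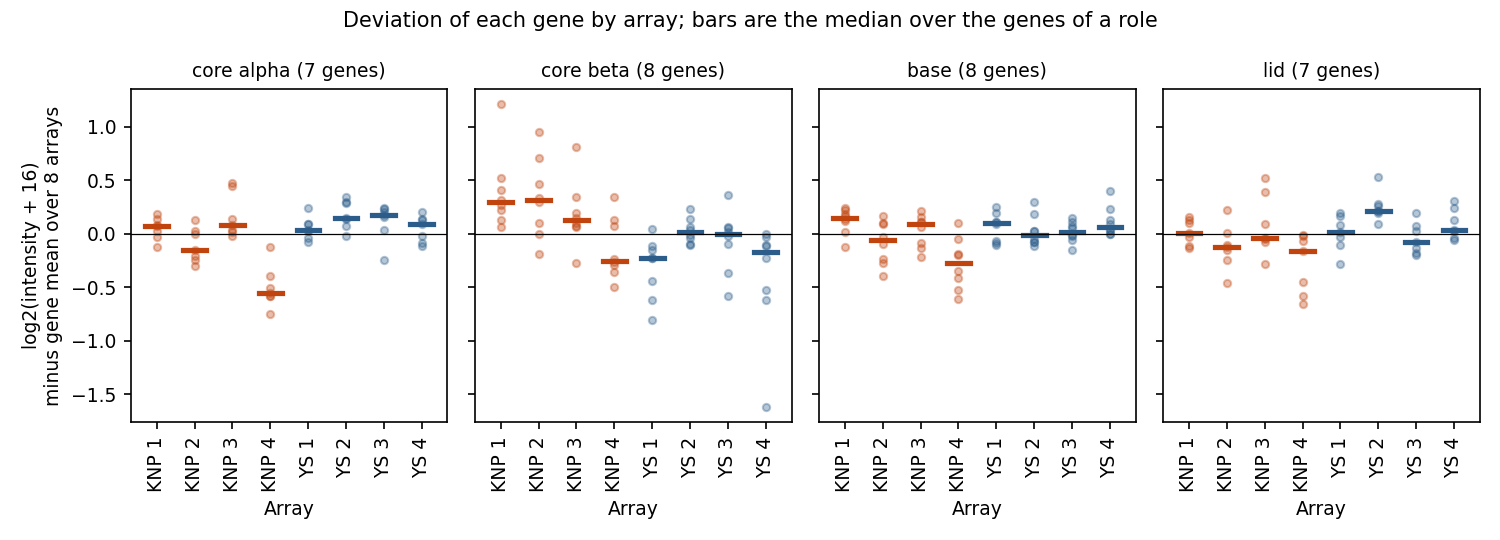
Each gene's log2(intensity + 16) minus its mean over the 8 arrays (y axis), by array (x axis, KNP in orange-red and YS in blue), for the alpha ring, beta ring, base and lid; points are genes and bars the median over the genes of the role. KNP 4 has the lowest bar in each of the 4 panels, at −0.56, −0.25, −0.27 and −0.16.

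Many members were low in a single animal. KNP replicate 4 was the lowest of the 8 arrays in 23 of the 39 genes, or 59.0%. It was the lowest in 10.6% of all probe sets tested and in 18.0% of the 2910 probe sets whose mean lay at 10 to 13 on the log2 scale. Of the 17 tested genes of the ubiquitin pathway list given below, it was the lowest in 5, or 29.4%. In core, base and lid it was the lowest in 11 of 15, 6 of 8 and 3 of 7 genes. The median shortfall of KNP replicate 4 against the mean of the other KNP animals was −0.59 in the alpha ring, −0.45 in the beta ring, −0.35 in the base and −0.26 in the lid. Against 20% of all probe sets tested, it was the lowest KNP animal in 69.2% of the members, or 27 of the 39 genes. Among the others were PSMC6, where it was the highest KNP animal at 3527, PSMG3, where it was the highest of all 8 at 551, and PSME4, where it was second among the KNP animals at 575. Its median intensity of 170, its first actin ratio of 6.37 and its summed hepatocyte marker level of 281527 were at the upper end of the KNP range or near it. Among the KNP arrays it also had the largest GAPDH ratio (3.77), control transcript mean (4833) and highest intensity (60066). The ratio of its second actin pair, 0.118, was the lowest of the KNP arrays, where the others had 0.164 to 0.489. Its summed level of T and NK cell markers, 1408, was the highest of the 8 arrays, where the others had 534 to 929. Of that list CD8A at 684 and CD3E at 432 were highest in this animal, while CD3D at 89.7 was lowest among the KNP animals and CD2 at 202 was close to its 203 in KNP replicate 2. HNF4A, 1 of the 7 hepatocyte markers, was lowest of the 8 arrays in this animal, at 4599. The part of these measures in its low proteasome values was not tested.

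The members also varied more among KNP than among YS animals. The SD over 4 animals on the log2 scale was larger in KNP for 32 of 39 genes, or 82.1%, against 59.7% of all probe sets tested. The median SD of the members was 0.29 in KNP and 0.14 in YS, and 0.17 in KNP without replicate 4. Over all probe sets tested it was 0.32 and 0.27.

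Over all 8 arrays, members deviated together from their breed means, within a role and across roles. As a description over 8 arrays, the mean of the pairwise correlations of these deviations was 0.62 over 21 pairs of alpha genes and 0.56 over 28 pairs of beta genes. It was 0.27 over 28 pairs in the base, 0.28 over 21 pairs in the lid and 0.51 over 56 pairs of an alpha with a beta gene, against 0.01 over all pairs of probe sets tested. These values rest in part on 1 animal: without KNP replicate 4 they were 0.26, 0.41, 0.12, 0.25 and 0.16, and 0.01 over all pairs. Alpha genes had a mean of 0.41 with the base and 0.39 with the lid. Beta genes had 0.25 with the base and 0.30 with the lid, and base with lid had 0.24. Without KNP replicate 4 these means across roles were 0.09, 0.21, −0.07, 0.13 and 0.09. Genes of one array share its RNA sample and its scaling.

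The alternative caps of the core were all lower in KNP in their means. The median difference of these 4 genes was −0.28. Without KNP replicate 4 it was −0.12, and 3 of the 4 lay below 0. PSME4, the large activator PA200 of the nucleus, had 509, 576, 491 and 575 in KNP and 631, 810, 725 and 800 in YS. The groups did not overlap, and the difference was −0.45 (SE 0.15, adjusted p = 0.205; 538 ± 44.2 against 741 ± 82.8). PSME3, the nuclear activator PA28 gamma, had 363, 386, 413 and 224 in KNP and 463, 445, 473 and 429 in YS. It did not overlap either, by a small margin and with KNP replicate 4 far below the others (−0.40, SE 0.20, adjusted p = 0.374).

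PSME1 and PSME2, the interferon-inducible subunits of PA28, were nearer to 0. PSME1 had 2243, 2442, 1713 and 1402 in KNP and 2030, 2043, 2355 and 2120 in YS (−0.16, SE 0.19, adjusted p = 0.728). PSME2 had 2559, 2732, 1781 and 1808 in KNP and 2095, 2337, 2348 and 2233 in YS (−0.05, SE 0.17, adjusted p = 0.927). In both genes KNP replicates 3 and 4 lay below all YS animals, and KNP replicate 2 lay above them. The summed level of 5 other interferon-induced genes was 2566 to 4429 in KNP and 3148 to 4768 in YS, lowest in KNP replicate 3, and none of the 5 passed.

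PSMF1, the inhibitor PI31, had a higher mean in KNP with both of its probe sets, and the dimmer one passed the threshold. The brightest had 535, 575, 344 and 551 in KNP and 358, 297, 412 and 397 in YS. KNP replicate 3 lay among the YS animals, and the difference was 0.42 (SE 0.20, adjusted p = 0.356). The second had 507, 527, 382 and 283 in KNP and 161, 187, 200 and 157 in YS, with no overlap (425 ± 114 against 176 ± 20.3). The KNP mean log2 value exceeded that of YS by 1.16, or 2.24-fold (limma adjusted p = 0.0394, SE 0.22), and by 1.23 and 1.00 with a pseudocount of 1 and 64, since the YS values lay near the array medians. This call was kept without KNP replicate 4 (1.34, adjusted p = 0.0264), and was lost without any 1 of the 7 other animals, with adjusted p between 0.0645 and 0.119. Quantile normalization (1.18, adjusted p = 0.0745) and cyclic loess (1.17, adjusted p = 0.0781) also ended it, as did leaving out the filter (adjusted p = 0.0836) or the intensity trend (adjusted p = 0.0762).

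The ratio of 2 probe sets of a gene within each array is given for PSMF1 and PSMD11 as a description with no test, since both genes were chosen after their values were seen. The log2 ratio of the second to the brightest PSMF1 probe set was −0.24 ± 0.47 in KNP and −0.99 ± 0.26 in YS (SD, n = 4 per breed). The log2 ratio of the brightest to the second PSMD11 probe set was 2.44 ± 0.20 in KNP and 2.83 ± 0.17 in YS (SD, n = 4 per breed).

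The chaperones that build the particle showed small differences. PSMD5 and PSMD10, which help to assemble the base, had 1016, 1736, 1272 and 873 against 915, 1398, 991 and 1077, and 447, 360, 553 and 330 against 302, 372, 490 and 339. Both pairs of groups overlapped widely, with differences of 0.13 (SE 0.23, adjusted p = 0.830) and 0.16 (SE 0.21, adjusted p = 0.776). PSMG1, which pairs up alpha subunits, had 569, 667, 585 and 527 in KNP and 597, 502, 574 and 476 in YS (0.13, SE 0.16, adjusted p = 0.753). PSMG3, another chaperone of the alpha ring, had 343, 399, 331 and 551 in KNP, whereas the YS animals lay within 401 to 415 (−0.03, SE 0.19, adjusted p = 0.951).

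Other genes of the ubiquitin pathway were read from a list of 42 symbols, of which 19 were on the array with a single symbol and 17 were tested. Of the 17, UBB and RPS27A fell, 0 rose and 15 did not pass, where 0.611% of all probe sets tested fell, and the median was 0.01. UBB, which encodes a chain of ubiquitin units, had 34131, 33263, 38574 and 35441 in KNP and 48532, 48472, 53165 and 53258 in YS (−0.53, SE 0.10, adjusted p = 0.0422). RPS27A, which encodes ubiquitin fused to a ribosomal protein, had 23333, 24075, 25852 and 30020 in KNP and 40474, 37183, 41212 and 34903 in YS (−0.58, SE 0.12, adjusted p = 0.04997). The groups did not overlap in either gene with these probe sets. A second RPS27A probe set overlapped, at 196 ± 34.2 in KNP and 210 ± 63.5 in YS (−0.06, SE 0.24, adjusted p = 0.938). The UBB and the first RPS27A probe set are among the brightest, and after quantile normalization they showed 0.01 (adjusted p = 0.963) and −0.14 (adjusted p = 0.530). After median centring they showed −0.45 (adjusted p = 0.0711) and −0.50 (adjusted p = 0.0688), and after cyclic loess −0.13 and −0.23, so the size depended on the scaling. SEM1, the smallest lid subunit, showed −0.19 and was not called.

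**Figure D4:**
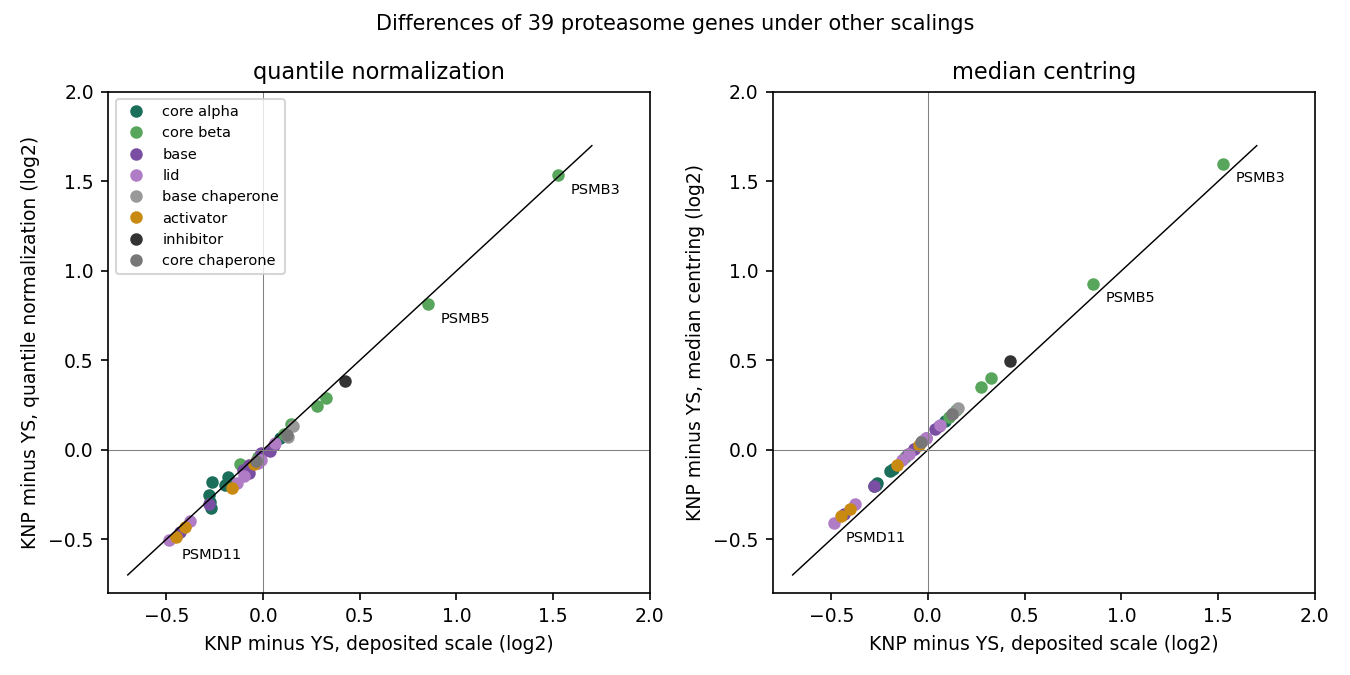
Difference between the breeds, KNP minus YS in log2 units, on the deposited scale (x axis) against the same after quantile normalization (left, y axis) and after median centring (right, y axis) for 39 proteasome genes, coloured by role; the line marks equal values. The genes lie along the line after quantile normalization, with PSMB5 at 0.81 and PSMB3 at 1.54, and a little above it after median centring, with PSMB5 at 0.93.

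The labelled tissue was checked with markers. All 7 hepatocyte markers were on the array and bright, with summed intensities of 237465 to 281527 in KNP and 385910 to 417356 in YS, and 5 of the 7 fell on the deposited scale, with a median of −0.60. For all probe sets tested the share that fell was 0.611%, and the median was −0.46 for those at 14 to 17 on the log2 scale. After quantile normalization 4 of the 7 lay below 0, with 0 called and a median of −0.03. All 7 lay below 0 after median centring (3 called, median −0.52) and after cyclic loess (0 called, median −0.19). Of the macrophage list 4 of 7 were on the array, with sums of 7788 to 10607 and 4756 to 9418, and of the T and NK cell list 4 of 6, with 568 to 1408 and 534 to 794. The endothelial (4 of 5), stellate (4 of 5) and erythrocyte (2 of 3) lists had sums of 2406 to 2759 and 1648 to 2964, 2694 to 3319 and 2247 to 3940, and 1400 to 3175 and 1709 to 4373, in KNP and YS. The bile duct list (3 of 4) had 273 to 518 and 177 to 340, with 2 genes below every array median, and the 1 B cell marker on the array was below every array median. No tested gene of these other lists passed. Fewer cells of a type and less RNA per cell cannot be told apart in whole liver tissue, and the part of cell makeup in the proteasome differences was not tested.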

How the data were processed

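The deposited value table holds 1 intensity per probe set and array on a linear scale, which the authors made with GCOS 1.3, per the submitters' processing notes. Each array had been scaled before deposit: the mean of the values between percentiles 2 and 98 was near 500 on each array (499.8). No detection calls were used. How GCOS turned probes into 1 signal is not given in the sources used here; this bears on all values. The array annotation named the probe sets, and all 45 member probe sets had the same symbol in the gene table of Sscrofa11.1. Members by the rule without a single-symbol probe set, such as PSMC4 and PSMD7, and all sequences were not analysed here.

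Of 24123 probe sets 124 controls and then the lower 40% by mean were left out. Values were taken as log2(intensity + 16) and fitted with limma 3.58.1 in R 4.3.3 (lmFit, eBayes with an intensity trend, breed as the only term), with Benjamini-Hochberg adjustment over 14399 probe sets and a threshold of 0.05. Each gene is read by its brightest probe set. The fit was tested on simulated data. Array number, 4 per breed, limits the precision. Each p-value sets a difference against the spread between these animals, with a variance moderated over all probe sets tested. Values per animal are given for genes called or without overlap, for the 2 genes with the smallest p in each role, and for the cutting, inducible, inhibitor and deubiquitinating genes; other probe sets are given where sign or call differs. The members, roles, lists and alternatives were chosen with earlier results of these data known. Alternatives were other pseudocounts, scalings, filters and variance models, the replicate block, each animal left out, a threshold of 0.01 and the mean over probe sets. The lists were other pathway genes, interferon-induced genes and markers of hepatocytes, macrophages, T and NK cells, B cells, endothelium, stellate cells, bile duct and erythrocytes.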

Additional observations from a re-analysis of the deposited data

Results flagged for a closer look

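In 3 of 44 sets of 4 animals looked at, 1 animal lay apart from the other 3 by more than Dixon's limit of 0.829 of the range; chance gives such a gap in about 1 of 20 sets. PSMA2 was at 3583 in KNP replicate 4, against 5246 to 5483 in the other KNP animals. PSMD8 was at 2210 in the same animal, against 3323 to 3509. PSMB5 was at 2743 in KNP replicate 2, against 2096 to 2130.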

How the results depend on the processing

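The count of proteasome genes past the threshold was 1 in the report and with a pseudocount of 1 or 64 or the lower 60% left out. It was 0 after quantile normalization, median centring or cyclic loess, without a filter, without the intensity trend, at a threshold of 0.01 and with the mean over probe sets, 2 with array weights, and 0 to 1 with 1 animal left out. A single called gene was PSMB5, except without KNP replicate 4, where it was PSMB3, and array weights called both. The 149 probe sets called in all became 14 (quantile and cyclic loess), 95 (median centring), 35 (no filter), 13 (no trend), 5 (threshold 0.01) and 8 to 119 with 1 animal left out. Medians with 1 animal left out ran from −0.34 to −0.11 (alpha), 0.13 to 0.27 (beta), −0.11 to 0.08 (core), −0.11 to −0.02 (base) and −0.19 to −0.03 (lid). With the replicate block, 8 probe sets and 0 proteasome genes were called. Animals with the same number are different pigs, and their deviations correlated at −0.02, 0.01, −0.01 and 0.05. A processing step shared by animals of the same number was not tested. The block also ended the call of the second PSMF1 probe set (1.16, adjusted p = 0.106). Among the genes given per animal, signs turned for 4 with differences near 0. After median centring PSMD14 was 0.047, PSME2 0.029 and PSMG3 0.041, and with array weights PSMD14 was 0.0046. With 1 animal left out PSMD14 ran from −0.21 to 0.16, PSME2 from −0.15 to 0.049, PSMG3 from −0.19 to 0.050 and PSMD5 from −0.054 to 0.27. Median centring moves the difference of each probe set by the same amount, so the sign turns under it are part of that shift. The cause of the other changes was not tested.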
